A study of Homo sapiens with 12 samples.

Results

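The mRNAs of the translation factors, the proteins that start, extend and end the synthesis of a polypeptide on the ribosome, were followed in RNA recovered with HuR from the cytoplasm of MiaPaCa-2 cells, a human pancreatic ductal adenocarcinoma (PDAC) line. They were chosen by name, by a rule that uses no measured value, though earlier results of these data were known. The rule takes protein-coding genes whose symbols start with EIF1 to EIF6, EEF1 or EEF2. It adds ETF1 and GSPT1 and leaves out the EIF2AK and EIF2C genes. Such names are carried by 68 genes of RefSeq, and 55 of them had an array feature that names no other gene, out of 33458 genes tested. Of the other 13, EIF4A1, EIF4A2, EIF4G2, EIF4EBP3, EIF3C, EIF3CL, EEF1B2, EEF1G and EEF2 share their features with other genes, and EIF4G3, EEF1E1, EEF1AKMT4 and EEF1AKMT4-ECE2 were not analysed here. HuR is an RNA-binding protein, and ribonucleoprotein immunoprecipitation with an antibody against it (HuR-IP) recovers HuR with the transcripts it holds, while nonspecific IgG (IgG-IP) gives the background of the procedure. Cells were given 10 µM olaparib, an inhibitor of PARP enzymes, or 1 µM gemcitabine, a nucleoside analog, for 16 h, or the vehicle DMSO. Each of the 6 combinations of antibody and treatment was measured on 2 Clariom D arrays, 12 in all. All groups come from 1 cell line with its own HuR. The labels name both arrays of a group as biological replicates and leave their preparation open, so the p-values measure the spread between these arrays alone.

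Initiation begins when the cap-binding protein eIF4E, held by the scaffold eIF4G and helped by the helicase eIF4A, engages the mRNA, while eIF3, eIF2 with its GTP and initiator tRNA, eIF1, eIF1A and eIF5 assemble on the small ribosomal subunit. eIF2B recharges eIF2 with GTP, eEF1A brings each aminoacyl-tRNA to the ribosome, eEF2 moves the ribosome along, eIF5A helps at sequences that are hard to join, and eRF1 and eRF3, made from ETF1 and GSPT1, end the chain. eIF4E is limiting in many cancers, and its mRNA is a known HuR target in other cells. Many mRNAs of ribosomal proteins and translation factors begin with a run of pyrimidines, the terminal oligopyrimidine (TOP) tract, through which growth signals control their translation.

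All values are log2 signals as deposited, so a difference of 1 is a factor of 2. The RMA method named for them brings arrays to a common distribution, so that a value in HuR-IP under that in IgG-IP stands for a smaller share of the recovered RNA and not for a known amount. The median signal of an array was 3.73 to 3.95, the median of its background probes 2.88 to 3.01 and its highest value 19.48 to 19.90. Precision is limited by the small number of arrays. Across 9139 genes whose mean signal exceeded 6, the SD of the difference between HuR-IP and the IgG-IP array of the same number was 2.02 to 2.24 for both olaparib arrays and for the DMSO and gemcitabine arrays numbered 1, but 1.12 for DMSO array 2 and 1.20 for gemcitabine array 2. These 2 HuR-IP arrays thus lay closer to IgG-IP than the other 4. Where leaving them out changes a call in the mean of the treatments, the value without them is also given. They were picked by the size of the difference under test, so leaving them out tends to enlarge it by construction. Values without them therefore lend a gene no support. The 2 groups concerned then hold 1 HuR-IP array each. Among markers of the line, KRT8 (9.10 to 11.60), KRT18 (11.34 to 16.12) and VIM (10.76 to 14.24) were well above background, whereas EPCAM (2.81 to 3.68) and CDH1 (3.08 to 3.89) were not. Of 8 measured markers of other cells, 6 stayed at 2.57 to 5.16, and CD3E (5.17 to 6.03) and COL1A1 (8.07 to 10.41) were higher. None of these 8 was called between HuR-IP and IgG-IP (median difference 0.04 over the 3 treatments), and their part in the results was not tested. Of the 8 markers of the line itself, KRT18, S100A4 and VIM were lower in HuR-IP at adjusted p under 0.05 and 0 were higher, with a median of -1.15.

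Most translation factor mRNAs lay below IgG-IP after HuR-IP, and a small set headed by EIF4E lay far above it. In the mean of the 3 treatments 40 of 55 members had a negative and 15 a positive log2 fold change, from -3.42 for EIF3K to 4.34 for EIF4E. Most other genes lay below IgG-IP as well. A negative value was found for 58.2% of all genes and 64.7% of the 9139 brighter genes, next to 76.5% of the 51 brighter members. A gene is said to be called, higher or lower, where the p-value of limma's moderated test, adjusted over the 33458 genes by the Benjamini-Hochberg method, was under 0.05. For the mean, the SE and p take the 3 treatments as independent, although arrays of the same number deviated together across treatments. Over the 3 treatments 1 member, EIF1AD, was called higher and 18 were called lower, which is 1.82% and 32.7% of the members against 2.39% and 7.51% of all genes. Dim genes are seldom called. Of the 9139 brighter genes 21.2% were lower and 7.09% higher, and among the 51 members above that signal, 33.3% were lower and 1.96% higher. The median log2 fold change of the 55 members was -1.22 in the mean, and it was -0.07 over all genes and -0.57 over protein-coding genes with a mean signal above 6. The members' median was -0.44 with cyclic loess, -0.78 with centring on brighter genes and -0.76 without IgG-IP DMSO array 1. With the replicate number as a block in the model, 9 members were higher and 25 lower (6.62% and 11.6% of all genes). Without the 2 HuR-IP arrays closest to IgG-IP, 10 were higher and 19 lower (6.75% and 11.0% of all genes). The split depends on scaling as well. Cyclic loess normalization gave 5 higher and 12 lower members, where 1828 and 1660 of all 33458 genes were called. Centring each array on its brighter genes, which moves the median of all genes from -0.07 to 0.38, gave 8 higher and 17 lower members. There 2290 and 1726 of all genes were called.

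**Figure D1:**
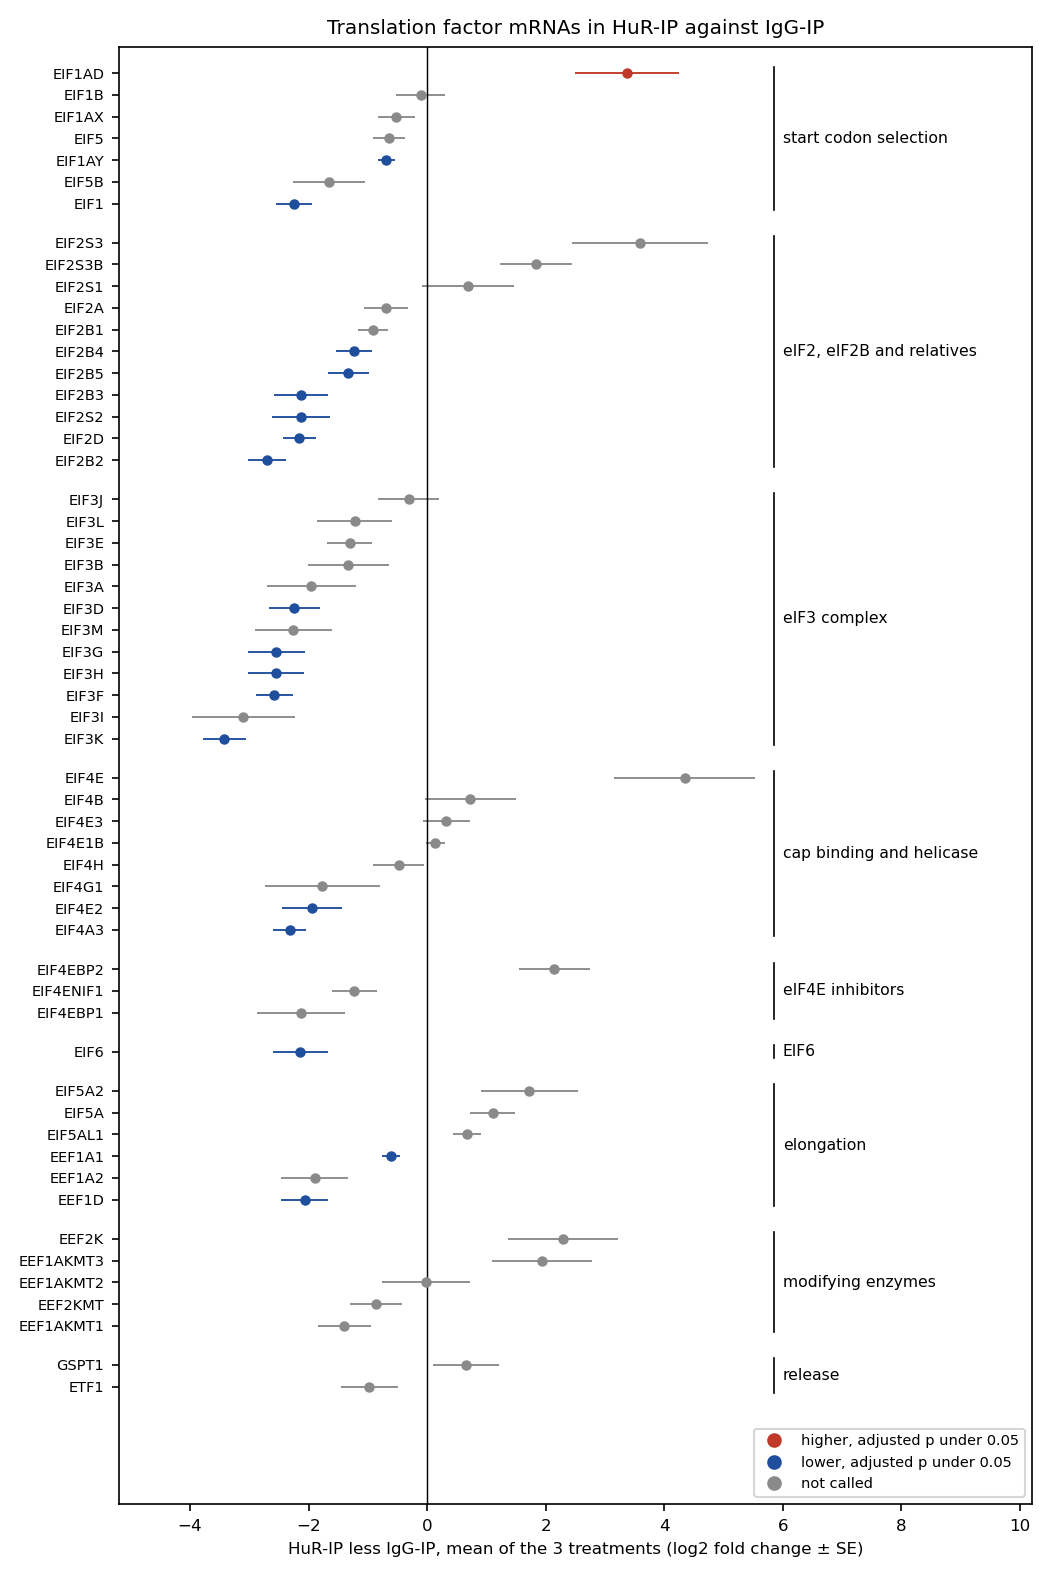
Log2 fold change (x axis, ± SE) of each of the 55 members between HuR-IP and IgG-IP, averaged over the 3 treatments, arranged by role group on the y axis, with red for members called higher, blue for those called lower and grey for the rest. EIF4E lies furthest right at 4.34 and EIF3K furthest left at -3.42, and all 12 eIF3 subunits lie left of 0.

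By treatment the calls were few. In olaparib 7 members were lower (12.7%, against 3.04% of all genes) and 0 higher (0.433% of all genes), and in DMSO and gemcitabine limma called 0 in either direction. Of the 9139 brighter genes 9.84% were lower and 1.2% higher in olaparib, and of the 51 brighter members 13.7% were lower. Over all genes the calls made up 0.0209% (higher) and 0.478% (lower) in DMSO, and 0.0568% and 0.977% in gemcitabine. Among the brighter genes they made up 0.0766% and 1.67% in DMSO, and 0.186% and 3.26% in gemcitabine. An unadjusted p under 0.05 was reached in DMSO by 0 members on the higher and 9 on the lower side (1.79% and 5.77% of all genes), in olaparib by 6 and 26 (5.6% and 12.4%), and in gemcitabine by 0 and 14 (2.87% and 7.53%). The block gave 1 call on either side in DMSO (85 higher and 395 lower of all genes). In olaparib it gave 5 higher and 19 lower members (1063 and 2281 of all genes). In gemcitabine it gave 1 higher and 7 lower members (164 and 757 of all genes). Leaving out the 2 HuR-IP arrays closest to IgG-IP leaves 1 in DMSO and 1 in gemcitabine. The members' medians were then -0.67 and -1.14, next to -0.62 and -1.12 as reported. In DMSO both HuR-IP arrays lay above both IgG-IP arrays for 4 members and below them for 23 (7.27% and 41.8%, against 12.7% and 23.9% of all genes). In olaparib they lay above for 13 and below for 35 (23.6% and 63.6%, against 20.4% and 30.0%). In gemcitabine they lay above for 3 and below for 28 (5.45% and 50.9%, against 14.6% and 21.5%). All 6 HuR-IP arrays were below all 6 IgG-IP arrays for 12 members (21.8%, against 5.36% of all genes) and above all of them for 1, EIF5A (1.82%, against 1.74%). For these counts of arrays that do not overlap, the shares of all genes include dim ones, and shares over the brighter genes were not taken.

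**Figure D2:**
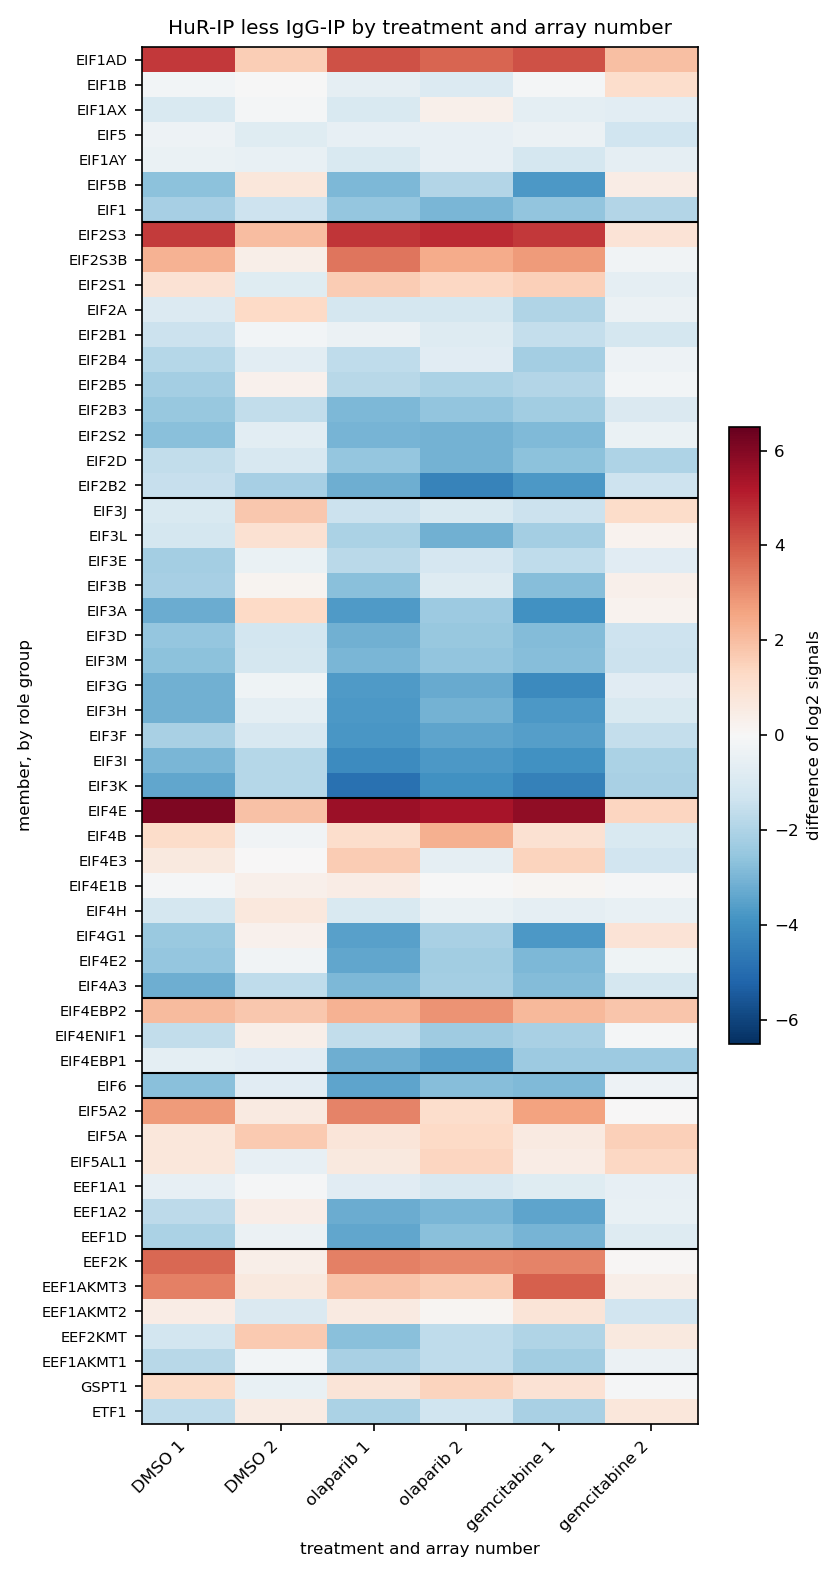
Difference of log2 signals between each HuR-IP array and the IgG-IP array with the same treatment and number (colour; red, HuR-IP higher; blue, lower) for the 55 members (rows, by role group) and the 6 pairs (columns). The columns DMSO 2 and gemcitabine 2 are paler than the other 4, and the rows of EIF4E, EIF2S3 and EIF1AD are the reddest.

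EIF4E had the highest log2 fold change of all members in each treatment. In DMSO its signal was 15.44 and 10.23 in HuR-IP (array 1 and array 2, the order used throughout) and 9.35 and 8.33 in IgG-IP. Olaparib arrays read 14.94 and 13.06 against 9.38 and 7.69, and gemcitabine arrays 15.02 and 9.18 against 9.27 and 7.79. Both HuR-IP arrays lay above both IgG-IP arrays in DMSO and olaparib, whereas in gemcitabine HuR-IP array 2 lay between the IgG-IP arrays. The 6 IgG-IP signals stayed within 7.69 to 9.38, so the spread was in HuR-IP. The log2 fold change was 3.99 (SE 2.06) in DMSO, 5.46 (SE 2.06) in olaparib and 3.57 (SE 2.06) in gemcitabine, with adjusted p = 0.751, 0.211 and 0.618 by limma. In the mean it was 4.34 (SE 1.19) with adjusted p = 0.0561, short of a call, and 6 of 6 HuR-IP arrays were above the IgG-IP array of their number. EIF4E was called in the mean with the block (adjusted p = 0.00341), with cyclic loess (0.0314) and with centring on brighter genes (0.00896). A trended and robust prior (0.026) and leaving out dim genes (0.0347) also made it a call, and taking the mean of a gene's features did not. With the 2 HuR-IP arrays closest to IgG-IP left out, the log2 fold change was 6.18. Leaving out each array in turn gave an adjusted p of 0.0126 to 0.138.

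The other cap-binding and helicase genes did not follow EIF4E. Of 8 measured, EIF4A3 and EIF4E2 were lower, and the group's median in the mean was -0.17. EIF4A3, the helicase at the core of the exon junction complex and thus a relative of the initiation helicase rather than part of it, read 9.16 and 10.30 in HuR-IP against 12.36 and 11.93 in IgG-IP in DMSO. Its olaparib signals were 9.25 and 9.54 against 12.18 and 11.73, and its gemcitabine signals 9.63 and 10.43 against 12.45 and 11.56. Every HuR-IP array was below every IgG-IP array. Its log2 fold change was -2.32 in the mean (SE 0.28, adjusted p = 0.00158) and -2.56 in olaparib (adjusted p = 0.0282). EIF4E2, a cap-binding relative that represses translation, had -1.94 (SE 0.51, adjusted p = 0.0479), next to 4.34 for EIF4E, and lost its call when the 2 HuR-IP arrays closest to IgG-IP were left out (adjusted p = 0.0575) and with cyclic loess (0.0946). EIF4E3, a further cap-binding relative, stood at 0.33 (adjusted p = 0.69) and EIF4E1B, known from oocytes and dim here (4.96 to 5.81), at 0.14 (adjusted p = 0.681). EIF4B and EIF4H, which stimulate the helicase, had 0.73 (adjusted p = 0.637) and -0.48 (adjusted p = 0.56). EIF4G1, the scaffold, had -1.77 with a wide error (SE 0.97, adjusted p = 0.319). Its HuR-IP array 2 read 15.84 in DMSO and 16.28 in gemcitabine, above both IgG-IP arrays, and array 1 read 12.59 and 10.82, below both. Leaving out those 2 second arrays gave EIF4G1 a log2 fold change of -3.22.

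The inhibitors of eIF4E lay on opposite sides. EIF4EBP2, a binding protein that keeps eIF4E from eIF4G, read 14.69 and 12.92 in HuR-IP against 12.62 and 11.19 in IgG-IP in DMSO. With olaparib it read 15.26 and 14.22 against 12.98 and 11.31, and with gemcitabine 15.89 and 13.65 against 13.79 and 11.87. HuR-IP was above IgG-IP on every pair of arrays of 1 number, and the groups overlapped only in gemcitabine. Its log2 fold change was 2.15 in the mean (SE 0.60, adjusted p = 0.0612), which the block turned into a call (adjusted p = 0.000193), in each treatment too (adjusted p = 0.0289 in DMSO, 0.00324 in olaparib and 0.0179 in gemcitabine). EIF4EBP2 was also called in the mean with cyclic loess (0.0167) and centring (0.00441), though not with the trended and robust prior (0.055). EIF4EBP1, its paralog, read 10.47 and 8.15 against 11.13 and 8.87 in DMSO, where the groups overlapped. In olaparib it read 8.13 and 5.59 against 11.33 and 9.10, and in gemcitabine 8.49 and 6.88 against 10.83 and 9.25, with both HuR-IP arrays below. Its log2 fold change of -2.13 (SE 0.74) was not called (adjusted p = 0.117), and was with the block (adjusted p = 0.000185). EIF4ENIF1, which carries eIF4E into the nucleus and into processing bodies, had -1.23 (adjusted p = 0.08). It was -1.68 once the 2 HuR-IP arrays closest to IgG-IP were dropped. No difference between the paralogs was tested, since a level of 1 feature cannot be set against that of another.

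**Figure D3:**
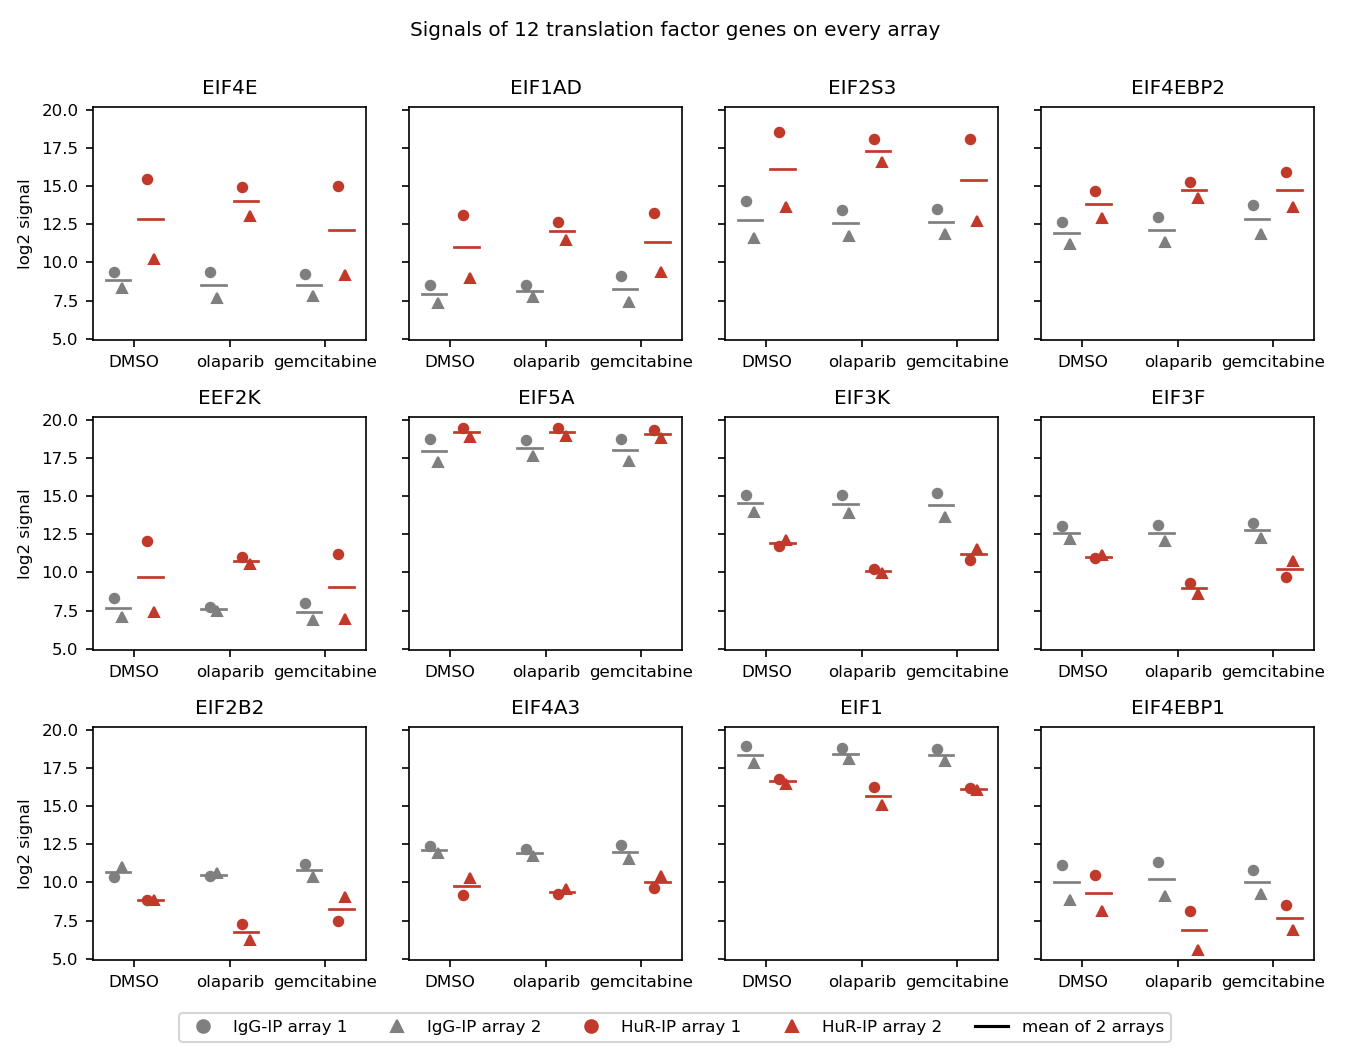
Log2 signal (y axis) of 12 members on every array, by treatment (x axis), with grey for IgG-IP, red for HuR-IP, circles for array 1, triangles for array 2 and a bar at the mean of both. For EIF4E the HuR-IP circles stand at 14.94 to 15.44 and the triangles of DMSO and gemcitabine at 10.23 and 9.18, whereas for EIF3K, EIF3F, EIF2B2, EIF4A3 and EIF1 all red symbols lie below all grey ones.

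Among 7 genes grouped under start codon selection, EIF1AD was higher and EIF1 and EIF1AY were lower. The group median was -0.65 in the mean, which cyclic loess turned to 0.16, with 4 of 7 above 0. EIF1AD and EIF5B were counted in this group, though the roles given for them here are others. EIF1AD encodes a nuclear protein with a domain like that of eIF1A that takes part in maturation of the small subunit. It read 13.12 and 8.96 in HuR-IP against 8.50 and 7.37 in IgG-IP in DMSO, 12.64 and 11.50 against 8.50 and 7.73 in olaparib, and 13.25 and 9.38 against 9.12 and 7.40 in gemcitabine. The groups did not overlap in any treatment. Its log2 fold change was 3.37 (SE 0.88, adjusted p = 0.0476), with an adjusted p of 0.00252 under the block. It was 4.71 with the 2 HuR-IP arrays closest to IgG-IP left out. The call held in 2 of the 12 fits that left out an array, those without HuR-IP array 2 of DMSO or of gemcitabine. EIF1, which guards the choice of start codon, read 16.77 and 16.47 against 18.91 and 17.80 in DMSO, 16.27 and 15.06 against 18.78 and 18.04 in olaparib, and 16.16 and 16.03 against 18.75 and 17.93 in gemcitabine. Its HuR-IP arrays were all below its IgG-IP arrays, and the log2 fold change was -2.24 (SE 0.30, adjusted p = 0.00291). EIF1B, a close paralog, stood at -0.11 (adjusted p = 0.914). EIF1AX, which makes eIF1A, had -0.52 (adjusted p = 0.375), and EIF1AY, its copy on the Y chromosome, whose probes may take up EIF1AX mRNA, -0.69 (adjusted p = 0.0197). The call of EIF1AY was lost with cyclic loess (-0.35, adjusted p = 0.17) and with centring (-0.24, adjusted p = 0.509). EIF5, which promotes GTP hydrolysis by eIF2, had -0.65 (adjusted p = 0.187) and EIF5B, which joins the subunits, -1.65 (adjusted p = 0.136). With the 2 HuR-IP arrays closest to IgG-IP left out, EIF5B was at -2.56.

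Subunits of eIF2 lay on both sides of IgG-IP, and those of eIF2B, its exchange factor, below it. Of 11 genes in this group 6 were lower and 0 higher, with a median of -1.24 in the mean. EIF2S3, the subunit of eIF2 that binds GTP and the initiator tRNA, read 18.55 and 13.62 in HuR-IP against 14.00 and 11.61 in IgG-IP in DMSO. Olaparib signals were 18.07 and 16.56 against 13.40 and 11.71, and gemcitabine signals 18.08 and 12.74 against 13.49 and 11.85. HuR-IP was clear of IgG-IP in olaparib alone, because array 2 lay between the IgG-IP arrays in DMSO and gemcitabine. Its log2 fold change was 3.59 (SE 1.15, adjusted p = 0.0927), and 5.30 with these 2 arrays left out. It was called under the block (adjusted p = 0.00366), with cyclic loess (0.0488) and with centring (0.0168), though not with dim genes left out (0.0584). EIF2S3B, a dim intronless copy whose probes may take up EIF2S3 mRNA, had 1.84 (adjusted p = 0.0984). It was called with the block (0.0138) and with centring (0.0178), and was 2.72 without the same 2 arrays. EIF2S1, the subunit that stress kinases phosphorylate, had 0.69 (adjusted p = 0.657), and 1.80 without them. EIF2S2, the β subunit, was lower at -2.13 (SE 0.49, adjusted p = 0.0301), though not with cyclic loess (0.0874).

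All 5 eIF2B subunits had negative values, and EIF2B2, EIF2B3, EIF2B4 and EIF2B5 were called lower. EIF2B2 read 8.83 and 8.86 against 10.35 and 11.00 in DMSO, 7.25 and 6.25 against 10.43 and 10.59 in olaparib, and 7.48 and 9.02 against 11.19 and 10.38 in gemcitabine. The groups were apart in each treatment, and the log2 fold change was -2.71 (SE 0.32, adjusted p = 0.0015). EIF2B3 had -2.13, EIF2B5 -1.33 and EIF2B4 -1.24, with adjusted p-values of 0.0221, 0.0453 and 0.0386, and EIF2B1 had -0.92 (adjusted p = 0.0574, and 0.0117 with the block). Leaving out the 2 HuR-IP arrays closest to IgG-IP ended the call of EIF2B3 (adjusted p = 0.0511). The calls of EIF2B4 and EIF2B5 were lost with cyclic loess and with centring on brighter genes. EIF2D, which can deliver initiator tRNA without eIF2 and helps to recycle ribosomes, read 8.54 and 8.06 against 10.16 and 9.10 in DMSO, 7.37 and 6.20 against 9.90 and 9.25 in olaparib, and 7.05 and 7.19 against 9.69 and 9.22 in gemcitabine. It was lower at -2.15 (SE 0.28, adjusted p = 0.0025). EIF2A, a single-chain protein unrelated to the eIF2 complex, had -0.69 (adjusted p = 0.308).

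The eIF3 complex, the largest initiation factor, stood lowest of the role groups with more than 1 member. All 12 measured subunits had a negative log2 fold change in the mean, with a median of -2.25, and 5 were lower: EIF3K, EIF3F, EIF3H, EIF3G and EIF3D. Under the other scalings 11 stayed negative, and EIF3J turned to 0.45 with cyclic loess and 0.13 with centring. With the block 8 subunits were lower, the added ones being EIF3I, EIF3M and EIF3E (adjusted p = 0.000244, 0.00063 and 0.0144). EIF3K read 11.72 and 12.10 in HuR-IP against 15.10 and 13.95 in IgG-IP in DMSO, 10.22 and 9.94 against 15.09 and 13.87 in olaparib, and 10.84 and 11.51 against 15.22 and 13.63 in gemcitabine. Its HuR-IP arrays were far below IgG-IP in each treatment. The log2 fold change was -3.42 in the mean (SE 0.36, adjusted p = 0.000937), the lowest of all members, and -2.61 (adjusted p = 0.197), -4.40 (adjusted p = 0.0106) and -3.25 (adjusted p = 0.0612) in DMSO, olaparib and gemcitabine.

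EIF3F, a subunit with a domain like those of deubiquitinases, read 10.92 and 11.16 against 13.01 and 12.20 in DMSO, 9.31 and 8.62 against 13.10 and 12.05 in olaparib, and 9.69 and 10.73 against 13.25 and 12.28 in gemcitabine. Groups did not overlap, and the log2 fold change was -2.58 (SE 0.31, adjusted p = 0.00176). EIF3H, which pairs with EIF3F through a related domain, read 11.99 and 13.30 against 15.10 and 13.92 in DMSO, 11.25 and 10.26 against 14.97 and 13.34 in olaparib, and 11.18 and 12.79 against 14.94 and 13.79 in gemcitabine. It stood at -2.55 (SE 0.47, adjusted p = 0.0126), with every HuR-IP array below every IgG-IP array. EIF3G, which binds RNA, had -2.54 (adjusted p = 0.0142) and EIF3D, which can bind the cap itself, -2.24 (adjusted p = 0.0142). Not called were EIF3I at -3.10 (SE 0.87, adjusted p = 0.06), EIF3M at -2.26 (0.0668), EIF3E at -1.31 (0.0643), EIF3A at -1.95 (0.149), EIF3B at -1.33 (0.285) and EIF3L at -1.22 (0.29), the adjusted p in parentheses. EIF3A, the scaffold, read 12.88 and 12.34 on HuR-IP array 2 of DMSO and gemcitabine and 9.96 and 8.87 on array 1. Without the 2 second arrays it was at -3.02. EIF3J, a loosely bound subunit, read 9.86 and 11.40 against 10.85 and 9.66 in DMSO, 9.84 and 8.53 against 11.23 and 9.53 in olaparib, and 9.54 and 10.22 against 10.95 and 9.04 in gemcitabine. Its groups overlapped in every treatment, and its -0.31 in the mean (SE 0.51, adjusted p = 0.776) was the highest value of the complex.

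The start of an mRNA carries the TOP tract, and its first bases are shown for the members with a tract and for EIF4E and EIF1AD, the members highest in the mean without one. The RefSeq promoter table (GRCh38.p14) gave a transcription start for 43 of the 55 members, 10 of them with several starts, of which the one with the longest tract was used. A tract was counted where the transcript begins with C and its first 5 or more bases are C or T on the strand of the gene. Each line gives 10 bases before the start and 20 from it, 5′ to 3′, with the tract in capitals, and the starts are those of the reference, not measured in these cells.
EIF3F (chr11:7987327-7987356, plus strand): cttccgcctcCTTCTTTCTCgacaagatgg
EIF3D (chr22:36529147-36529176, minus strand): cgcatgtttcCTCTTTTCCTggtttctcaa
EIF3K (chr19:38619178-38619207, plus strand): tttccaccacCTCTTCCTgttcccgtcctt
EIF3M (chr11:32583821-32583850, plus strand): gcccagttccCTTTTCCggtcggcgtggtc
EIF2D (chr1:206612446-206612475, minus strand): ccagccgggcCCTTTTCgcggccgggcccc
EIF2A (chr3:150546777-150546806, plus strand): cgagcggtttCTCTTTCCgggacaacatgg
EEF1A1 (chr6:73521013-73521042, minus strand): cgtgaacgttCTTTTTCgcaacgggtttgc
EIF4B (chr12:53006446-53006475, plus strand): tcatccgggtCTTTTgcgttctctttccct
EIF2S3 (chrX:24054946-24054975, plus strand): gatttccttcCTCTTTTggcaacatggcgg
EIF2S3B (chr12:10505880-10505909, plus strand): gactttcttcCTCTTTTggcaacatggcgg
EIF4E (chr4:98929114-98929143, minus strand): tggagcggttgtgcgatcagatcgatctaa
EIF1AD (chr11:66002138-66002167, minus strand): cagcgccggaagtacggttttcggagggat

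A tract of 5 to 10 bases was present in 10 of the 43 members. It was present in 5.14% of the 27305 genes of the table, where no chromosome was left out. Of these 10 members, 5 were lower in the mean (EIF3K, EIF3F, EIF3D, EIF2D and EEF1A1) and 0 higher, with a median log2 fold change of -1.42 and a range of -3.42 to 3.59. Of the 33 without a tract, 9 were lower and 1 higher, with a median of -0.65. Among protein-coding genes with a mean signal above 6, again with no chromosome left out, 28.2% of 458 with a tract and 18.3% of 5588 without one were lower. Of these 5.46% and 7.62% were higher. Of the 10 members with a tract 7 were below 0, while EIF2S3 and EIF2S3B stood at 3.59 and 1.84, neither of them called. Probes of EIF2S3B may take up EIF2S3 mRNA, so these need not be 2 separate cases. Whether the tract goes with a direction was not tested. The windows of EIF2S3 and EIF2S3B differ at 2 of 30 bases. Known TOP mRNAs among the members, a list of 9 from earlier knowledge of which 6 were measured, gave 4 lower (EEF1A1, EEF1D, EIF3F and EIF3H) and 0 higher, with a median of -1.69. Of all genes 7.51% were lower, and of the brighter ones 21.2%. The call of EEF1A1 was lost with cyclic loess, which turned it to 0.17. EEF1D, EIF3E and EIF3H of this list lie on chromosome 8 and were left out of the count by tract. EIF4B, on that list and with a tract above, was at 0.73.

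**Figure D4:**
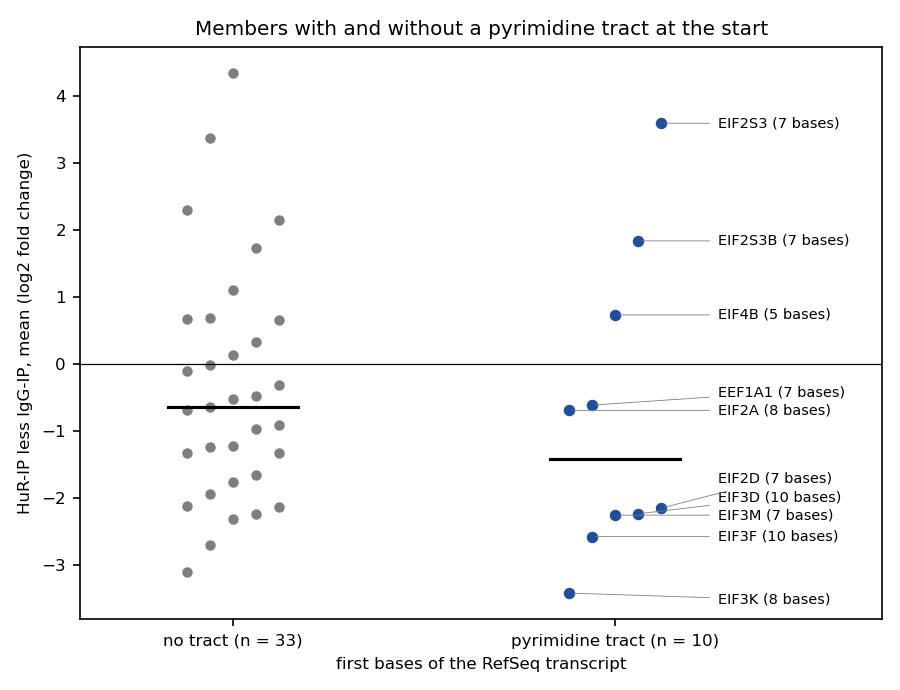
Log2 fold change between HuR-IP and IgG-IP, averaged over the 3 treatments (y axis), for the 43 members whose RefSeq start was used, split by whether the transcript begins with a pyrimidine tract, with names and tract lengths on the right and a bar at each median. Members on chromosome 8 were left out. The 10 members with a tract span -3.42 to 3.59, and the medians are -1.42 with and -0.65 without a tract.

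Elongation genes were spread around 0, with a median of 0.03 over 6 measured, and EEF1D and EEF1A1 were lower. EEF1D, part of the exchange factor of eEF1A, read 8.66 and 9.01 against 10.73 and 9.37 in DMSO, 6.92 and 6.31 against 10.30 and 9.04 in olaparib, and 7.33 and 7.84 against 10.37 and 8.68 in gemcitabine. It was below IgG-IP in each treatment, by -2.07 in the mean (SE 0.39, adjusted p = 0.0135). EEF1A1, the main form of eEF1A, had -0.62 (SE 0.15, adjusted p = 0.0379), at signals of 18.51 to 19.79 near the top of the scale, where a difference can be compressed. Cyclic loess turned its sign (0.17), and the call was also lost with centring (adjusted p = 0.625) and when the 2 HuR-IP arrays closest to IgG-IP were dropped (0.0783). EEF1A2, the form of muscle and nerve, had -1.90 (adjusted p = 0.072), called with the block (0.0133) and with centring (0.0314). EIF5A was the single member with all 6 HuR-IP arrays (18.80 to 19.47) above all 6 IgG-IP arrays (17.20 to 18.75), also near the top of the scale, and its log2 fold change of 1.10 (SE 0.38) was not called (adjusted p = 0.114), and was with the block (0.00572), cyclic loess (0.0194) and centring (0.00516). EIF5A2, its paralog known from several cancers, read 10.16 and 7.03 against 7.39 and 6.46 in DMSO, 10.93 and 8.03 against 7.72 and 6.91 in olaparib, and 10.45 and 6.92 against 7.81 and 6.89 in gemcitabine. The groups were apart in olaparib only, and the log2 fold change was 1.72 (SE 0.82, adjusted p = 0.245), with 6 of 6 HuR-IP arrays above the IgG-IP array of their number. EIF5A2 was called with the block (adjusted p = 0.0245), and was 2.83 without the 2 HuR-IP arrays closest to IgG-IP. EIF5AL1, a copy of EIF5A, was near background (2.64 to 4.44) at 0.68 (adjusted p = 0.118, and 0.0279 with centring).

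Of 5 genes for enzymes that modify elongation factors, none was called in the mean, and at an unadjusted p under 0.05 EEF2K and EEF1AKMT3 were higher and EEF1AKMT1 was lower. EEF2K, the kinase that inactivates eEF2, read 12.03 and 7.44 in HuR-IP against 8.29 and 7.05 in IgG-IP in DMSO, 11.00 and 10.55 against 7.71 and 7.46 in olaparib, and 11.20 and 6.92 against 7.99 and 6.86 in gemcitabine. HuR-IP array 1 was well above IgG-IP in each treatment, and array 2 in olaparib only. Its log2 fold change was 2.30 (SE 0.92, adjusted p = 0.172), with an adjusted p of 0.0374 under the block. It was 3.77 with the 2 HuR-IP arrays closest to IgG-IP left out. EEF1AKMT1, a lysine methyltransferase of eEF1A, read 6.01 and 6.12 against 7.81 and 6.29 in DMSO, 6.17 and 5.52 against 8.29 and 7.17 in olaparib, and 6.58 and 6.22 against 8.84 and 6.58 in gemcitabine. HuR-IP was lower in each treatment, if narrowly in gemcitabine, and the value was -1.39 (SE 0.44, adjusted p = 0.0892, and 0.0136 with the block). EEF1AKMT3, of the same kind, had 1.94 (adjusted p = 0.205). It was called with the block (0.0255), and was 3.21 without the same 2 arrays. EEF1AKMT2 had -0.02 (adjusted p = 0.992), and EEF2KMT, which methylates eEF2, -0.86 (adjusted p = 0.278).

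EIF6, which keeps the ribosomal subunits apart and takes part in making the large subunit, was lower. It read 7.08 and 7.43 against 9.81 and 8.16 in DMSO, 6.23 and 5.73 against 9.66 and 8.51 in olaparib, and 6.70 and 6.83 against 9.55 and 7.15 in gemcitabine. The groups did not overlap, and the log2 fold change was -2.14 (SE 0.46, adjusted p = 0.0241). Neither release factor was called in the mean. ETF1, which makes eRF1 and reads the stop codon, read 8.62 and 9.08 against 10.29 and 8.57 in DMSO, 7.87 and 7.25 against 9.94 and 8.53 in olaparib, and 7.91 and 8.42 against 10.00 and 7.67 in gemcitabine, which makes -0.97 in the mean (SE 0.49, adjusted p = 0.269). GSPT1, which makes the GTPase eRF3, read 15.22 and 13.04 against 13.98 and 13.51 in DMSO, 14.87 and 14.55 against 14.05 and 13.11 in olaparib, and 14.83 and 12.26 against 13.86 and 12.32 in gemcitabine, for 0.66 (SE 0.56, adjusted p = 0.539). GSPT1 was at 1.45 once the 2 HuR-IP arrays closest to IgG-IP were left out. Both genes overlapped between antibodies in DMSO and gemcitabine and were apart in olaparib.

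Whether a drug moved the HuR-IP to IgG-IP difference was tested against DMSO, whose arrays both drug comparisons share. For olaparib limma called 0 of 55 members and 0 of all genes, and at an unadjusted p under 0.05 0 members were higher and 2 lower (1.48% of all genes were lower). These were EIF3F at -2.04 (SE 0.77) and EIF2B2 at -1.93 (SE 0.78), each with an adjusted p of 1.0 by limma. For gemcitabine the count of members was 0 by adjusted and by unadjusted p. Of all 33458 genes 0 were called, and 297 were higher and 209 lower at an unadjusted p under 0.05. EIF4E differed by 1.47 (SE 2.91) between olaparib and DMSO and by -0.43 (SE 2.91) between gemcitabine and DMSO, errors that leave room for large changes either way. The members' medians of these differences were -0.79 for olaparib and -0.33 for gemcitabine, beside -0.02 over all genes, dim ones included, for each. The HuR-IP arrays closest to IgG-IP lie in DMSO and gemcitabine. A lower value with a drug was not particular to the members. The median log2 fold change of the 9139 brighter genes was -0.91 with olaparib and -0.47 with gemcitabine, next to -0.24 with DMSO. For the 51 brighter members it was -1.89 and -1.18, next to -0.69. Whether members moved more than other brighter genes was not tested. The members' medians of the drug differences rest on few arrays. That of olaparib ran from -1.50 without IgG-IP DMSO array 1 to -0.08 without IgG-IP olaparib array 1 (-0.20 without IgG-IP DMSO array 2, -0.30 without HuR-IP olaparib array 2), and was -0.22 with cyclic loess. That of gemcitabine ran from -0.92 without IgG-IP gemcitabine array 2 (-0.91 without IgG-IP DMSO array 1) to 0.23 without IgG-IP DMSO array 2 (0.22 without IgG-IP gemcitabine array 1), and was -0.07 with cyclic loess. On IgG-IP arrays alone, 0 members differed between a drug and DMSO by either p, with a range of -0.74 to 0.68 for olaparib and -0.93 to 0.92 for gemcitabine.

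Other genes of the pathway that are not members were counted from a list of 32 regulators and partners, 29 of them measured. In the mean 2 were higher and 5 lower, with a median of -0.35, where 2.39% and 7.51% of all genes and 7.09% and 21.2% of the brighter ones were called. PPP1R15B, the phosphatase subunit that restores eIF2 after stress, stood at 3.83 on the log2 scale (SE 0.61, adjusted p = 0.00631), and LARP1, the protein that holds TOP mRNAs back from translation, 2.72 (SE 0.70, adjusted p = 0.0453). MCTS1, a partner in initiation and recycling related to EIF2D, had -2.62 (SE 0.24, adjusted p = 0.000472) and EIF2AK4, the eIF2 kinase that senses amino acid shortage, -2.45 (SE 0.34, adjusted p = 0.00308). RHEB, which activates mTOR, DHX29, a helicase of initiation, and DHPS, which makes the hypusine of eIF5A, were lower at -1.86, -1.75 and -1.63. Of 10 factors of mitochondrial translation 8 were measured, and MTIF3 (-2.38, adjusted p = 0.00144) and MTRFR (-1.93, adjusted p = 0.0107) were lower, with a median of -1.10.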

How the data were processed

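Clariom D arrays measured MiaPaCa-2 RNA from either antibody. The authors normalized the arrays in Affymetrix Expression Console 1.4, with RMA named in the submitters' processing notes, and deposited log2 signals for 138745 features. The genome build of the array files is not given in the sources used here, so features have no coordinates. The values were used as deposited. Of the features, 36176 could be given 1 gene symbol, updated with the RefSeq table of GRCh38.p14 (25516 by gene ID, 9899 by symbol, 623 by older symbol, 138 kept), and the brightest feature of each of 33458 genes was tested, with no filter on dim genes. For 3 members several features exist. All tests came from 1 linear model of the 6 groups (limma 3.58.1 under R 4.3.3 and the package data.table, version 1.17.8), in which 6 residual degrees of freedom were joined by 2.42 from the prior. It gave HuR-IP less IgG-IP by treatment and as their mean, the change of that difference with each drug, and the drug effects within IgG-IP. The procedure was tested on simulated data.

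Signals on every array are given for EIF4E, for the highest and lowest member of each role group in the mean, and for up to 8 members in each direction with the largest moderated statistic among those called. Members and lists were chosen with earlier results of these data known. Arrays of the same number deviated together from their group means (correlations of 0.154 to 0.807 over the 15 pairs of groups, 0.204, 0.513 and 0.189 between antibodies in DMSO, olaparib and gemcitabine). The pairing is inferred from these values and is not stated by the labels. The model has no block, and blocked values are given where they change a call in the mean, and as counts by treatment. Other alternatives were cyclic loess, centring on genes with a mean above 6, a trended and robust prior, the compared arrays alone, leaving out genes with a mean under 4, the mean of a gene's features, and leaving out arrays.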

Additional observations from a re-analysis of the deposited data

How the results depend on the processing

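With 2 arrays a group, counts of members called moved with the processing, and why was not tested. The counts given are higher and lower members. For DMSO, olaparib, gemcitabine and the mean they were 0 and 0, 0 and 7, 0 and 0, and 1 and 18 as reported, and with the replicate number as a block 1 and 1, 5 and 19, 1 and 7, and 9 and 25. Without HuR-IP array 2 of DMSO and of gemcitabine they were 3 and 1, 5 and 10, 4 and 6, and 10 and 19. Centring gave 1 higher in olaparib, 1 lower in gemcitabine and 8 higher in the mean (588, 201 and 2290 of all genes). Cyclic loess gave 5 higher in the mean (1828 of all genes). Dim genes left out gave 3 higher in the mean and 1 lower in gemcitabine (991 and 326 of the 19087 genes kept). The trended and robust prior gave 3 higher in the mean and 2 lower in olaparib (897 and 308 of all genes). With the compared arrays alone, 4 were higher in olaparib (720 of all genes). Calls over all genes also moved in the fits that left out an array. Leaving out each array in turn gave 0 to 7 higher and 10 to 20 lower in the mean, 0 to 8 lower in olaparib (0 without HuR-IP array 2 or IgG-IP array 1 of olaparib) and 0 to 1 lower in gemcitabine. EIF1AD, the 1 member called higher in the mean, was called in 2 of these 12 fits. Of the 18 members lower in the mean, 10 were lower in all 12: EEF1D, EIF1, EIF2B2, EIF2D, EIF3D, EIF3F, EIF3G, EIF3H, EIF3K and EIF4A3. EEF1A1 turned to 0.17 with cyclic loess, and EIF3J to 0.45 with cyclic loess, 0.13 with centring and 0.0044 without IgG-IP gemcitabine array 1. EIF3J was -0.6313 without IgG-IP gemcitabine array 2, and -0.6828 without HuR-IP array 2 of DMSO and of gemcitabine. The tests of a drug against DMSO gave 0 members under every alternative run. Signals near the top of the scale (EEF1A1, EIF5A, EIF1, EIF2S3) and near background (EIF5AL1, EIF2S3B, EIF4E1B) limit those sizes.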
